A study of Mus musculus with 4 samples.

Results

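Peaks of open chromatin that were more accessible in white than in beige adipocytes numbered 247 of the 189598 peaks in single-nucleus ATAC-seq (snATAC-seq) of mouse inguinal white adipose tissue (iWAT). A peak belonged to the set where its accessibility reached at least 20 CPM in the pooled nuclei annotated Adipocyte, here called white adipocytes, and at least 2 times its CPM in the pooled nuclei annotated Beige. CPM is the number of nuclei in which the peak held a fragment, per 1000000 such entries of the cluster over all peaks. The set is 0.13% of all peaks and 2.17% of the 11393 peaks that reached 20 CPM in white adipocytes. The peaks were chosen by their pooled white and beige CPM, so those values are given as a description and without a test.

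The tissue came from male C57BL/6 mice of 8 weeks that were kept at room temperature (22 °C, day0RT), exposed to cold (6.5 °C; day1C, day3C and day7C) or given CL-316,243, a selective agonist of the β3-adrenergic receptor, at 1 mg/kg (day1CL, day3CL and day7CL). Each of the 7 groups held 3 mice, and the mouse was the replicate. All mice were of this strain, and nuclei came from whole fat pads, which hold white and beige adipocytes, progenitors, vessels and immune cells. The annotation assigned 5935 nuclei to white and 1069 to beige adipocytes among 32552 nuclei in 12 clusters.

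White adipocytes store triglyceride in 1 large droplet, release fatty acids on demand and secrete hormones such as leptin and adipsin. Beige adipocytes arise in white depots after cold or β3-adrenergic stimulation, hold many small droplets and mitochondria, and burn fuel to make heat. In ATAC-seq a transposase cuts DNA where nucleosomes are absent, so a peak marks a promoter or a distal element that is open in that cell type. An open element is not proof that the nearest gene is transcribed, and the gene named with each peak below is only the protein-coding gene whose start lies nearest to the centre of the peak.

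Libraries and labels were checked first. White libraries ranged from 44198 entries in 23 nuclei (day1CL replicate 1) to 3655538 entries (day3C replicate 1), and in the smallest library 1 entry was worth 22.6 CPM. Beige libraries with at least 10 nuclei were had from 19 of 21 mice, day1CL replicates 1 and 2 being too small. Of all nuclei, 8739 (26.8%) carried a barcode that also occurred in another mouse, in 18 pairs of mice that shared treatment and replicate number but never the day, and 21.5% of such pairs of nuclei had the same cluster against 20.7% over all nuclei. Without those nuclei the rule gave 236 peaks, 204 of them in the set. Over marker genes of adipocytes the summed accessibility was 2094 CPM in white and 1884 CPM in beige nuclei, and over beige markers it was 803 CPM in white and 1639 CPM in beige nuclei, 7 of 8 beige marker genes being highest in the beige cluster. The cluster annotated VSMC did not have the highest summed smooth muscle markers (203 CPM against 376 CPM in APC2), and its adipocyte marker sum of 920 CPM was the highest outside the adipocytes. That sum rested largely on *Plin4* (479 CPM). Of the adipocyte markers *Plin4* and *Pnpla2* were highest in VSMC over all clusters, while *Adipoq* had its lowest level there (5.22 CPM).

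The sequences of the 3 peaks with the largest white to beige ratio show which DNA stood apart most. They are 300 bases around the peak centre, on the plus strand of mm10 (RefSeq GRCm38.p6), and lie in introns of *Atp8a2* (chr14:59692202-59692501, nearest start *Shisa2*), *Gpt2* (chr8:85515413-85515712) and *Far2* (chr6:148068816-148069115). Capitals mark letters that match the searched motifs, on either strand: the TEAD motif GGAATG in the first, the C/EBP motif TTNNGCAA, a MEF2 motif (CTA and its inverted copy 4 bases apart) and a STAT motif (TTC and its inverted copy 3 bases apart) in the second, and the C/EBP motif in the third.
Shisa2 peak: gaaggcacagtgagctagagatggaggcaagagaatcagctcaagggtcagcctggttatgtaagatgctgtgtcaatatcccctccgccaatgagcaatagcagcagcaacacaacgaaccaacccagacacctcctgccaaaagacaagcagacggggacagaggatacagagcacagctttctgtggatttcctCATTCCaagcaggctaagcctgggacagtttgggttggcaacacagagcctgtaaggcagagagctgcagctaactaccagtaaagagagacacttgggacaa
Gpt2 peak: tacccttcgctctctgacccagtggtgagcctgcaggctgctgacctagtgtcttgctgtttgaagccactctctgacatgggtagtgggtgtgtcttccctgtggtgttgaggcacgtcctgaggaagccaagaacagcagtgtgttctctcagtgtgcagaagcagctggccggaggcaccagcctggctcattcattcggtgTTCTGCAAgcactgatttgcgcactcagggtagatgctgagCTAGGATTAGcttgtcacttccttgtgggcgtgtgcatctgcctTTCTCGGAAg
Far2 peak: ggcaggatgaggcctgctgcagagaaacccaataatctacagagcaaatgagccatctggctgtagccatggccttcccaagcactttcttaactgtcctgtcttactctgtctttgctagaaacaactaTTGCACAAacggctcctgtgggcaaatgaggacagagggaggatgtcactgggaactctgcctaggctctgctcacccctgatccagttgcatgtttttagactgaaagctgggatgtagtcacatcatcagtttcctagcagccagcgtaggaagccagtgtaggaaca

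The second group shows the strongest elements that could be printed, at *Car3* downstream of the gene (chr3:14872524-14872823), at the *Car3* promoter (chr3:14863238-14863537) and downstream of *Lep* (chr6:29074091-29074390). No searched motif lay in these windows, so they hold no capitals, and nothing about any factor follows from that.
Car3 downstream peak: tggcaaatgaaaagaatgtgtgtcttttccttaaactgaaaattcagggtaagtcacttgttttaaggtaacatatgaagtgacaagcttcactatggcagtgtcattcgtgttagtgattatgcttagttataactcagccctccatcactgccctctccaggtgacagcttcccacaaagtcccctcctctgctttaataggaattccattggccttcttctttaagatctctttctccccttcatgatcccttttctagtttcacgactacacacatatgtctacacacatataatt
Car3 promoter peak: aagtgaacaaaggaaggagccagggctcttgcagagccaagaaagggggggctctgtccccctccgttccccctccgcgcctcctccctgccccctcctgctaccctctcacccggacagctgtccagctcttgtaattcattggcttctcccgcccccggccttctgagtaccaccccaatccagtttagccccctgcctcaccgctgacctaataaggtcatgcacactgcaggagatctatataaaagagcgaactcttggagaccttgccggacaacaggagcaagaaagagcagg
Lep downstream peak: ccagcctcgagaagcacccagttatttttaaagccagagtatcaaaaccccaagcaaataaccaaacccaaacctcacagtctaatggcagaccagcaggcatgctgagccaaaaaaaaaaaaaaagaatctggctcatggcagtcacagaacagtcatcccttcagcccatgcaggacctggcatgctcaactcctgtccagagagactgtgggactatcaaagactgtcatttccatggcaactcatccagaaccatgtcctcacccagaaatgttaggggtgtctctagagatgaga

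The third group shows the 14 matches to the NR3C motif, the element that glucocorticoid, mineralocorticoid, progesterone and androgen receptors share. It was searched as GNACA and its inverted copy 3 bases apart. The 14 matches lay in 13 peaks, and each is printed in capitals with 8 bases on both sides, on the plus strand.
Bcl2l10 peak, chr9:75363153-75363181: ggaggggaGAACATATTGTTCggggataa
Cmklr1 upstream peak, chr5:113672933-113672961: ccacctcaGGACACCATGTGCctgcatcc
Scd1 upstream peak, chr19:44438001-44438029: gtgcagaaGGACAAACTGTACagtcagtc
Ctsc peak, chr7:88346308-88346336: ttctgttaGAACAGAGTGTGCttgcaaag
Slc7a10 upstream peak, chr7:35157215-35157243: gttctccgGGACATCATGTACattcctag
Prr5 upstream peak, chr15:84639632-84639660: atttgggaGAACACGCTGTTCcaggccag
Trp63 peak, chr16:25786628-25786656: ttaaatgaGGACAAGATGTTCcaaaaact
Fam196a upstream peak, chr7:135029316-135029344: aaagcctgGTACAAACTGTTCaaacagtc
Serpina3n promoter peak, chr12:104406622-104406650: agcacagaGCACAGCTTGTCCatgccagc
Gsta3 upstream peak, chr1:21232152-21232180: ttttctaaGCACACTTTGTACtttgggcc
Mertk peak, chr2:128746713-128746741: cctcaaggGAACATCTTGTTCctcagagc
Lep intron peak, chr6:29065485-29065513: gacgtgagGAACACAGTGTACtgcatcag
Slc10a6 promoter peak, first site, chr5:103629208-103629236: agttgcccGCACAGTCTGTGCtcatctcc
Slc10a6 promoter peak, second site, chr5:103629546-103629574: cgacagtgGCACATCGTGTTCtagggaag

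Within the central 500 bases of each peak, the NR3C motif occurred in 13 of 247 peaks (5.26%), in 1.69% of the 11146 other peaks that reached 20 CPM in white adipocytes and in 1.46% of all peaks. Among peaks away from gene starts the shares were 5.07% and 2.52%. The C/EBP motif was in 38.1% of the set, 22.3% of the other open peaks and 25.9% of all peaks, and away from gene starts in 39.6% of the set and 33.6% of the other open peaks. STAT letters were in 22.3%, 12.9% and 17.0%, and TEAD letters in 30.4%, 20.6% and 25.6%, in the same order. Away from gene starts STAT letters were in 23.0% of the set and 16.9% of the other open peaks, and TEAD letters in 30.9% and 26.1%. The motif of the ESRR receptors (TCAAGGTCA), which drive oxidative genes in thermogenic fat, was in 1 peak of the set (0.405%), 0.691% of the other open peaks and 1.14% of all peaks. The PPAR-RXR motif (AGGNCA as a direct repeat 1 base apart) was as scarce, with 1 peak (0.405%), 1.04% and 1.14%. ESRR was thus not set apart from PPAR-RXR in this count. These shares describe letters in windows of equal length, and occupancy by a factor was not measured.

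The set lay mostly away from promoters. Of the 247 peaks 30 (12.1%) were within 2000 bases of a gene start, 8 in exons, 111 (44.9%) in introns and 98 (39.7%) between genes, whereas 50.8% of the other open peaks were at promoters. The median distance to the nearest start was 28265 bases in the set, 1710.5 bases in the other open peaks and 31517 bases over all peaks. Median GC content was 49.2%, 57.2% and 46.8% in the same order. In location and GC content the set was closer to the whole peak list than to other peaks of similar accessibility.

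White accessibility in the set ran from 20.04 to 114 CPM with a median of 23.2, beige accessibility from 1.97 to 34.4 CPM with a median of 9.65, and the ratio from 2.01 to 14.2 with a median of 2.46. Just inside the ratio threshold were peaks at *Slc10a6* (2.006) and *Prima1* (2.006), and just outside it peaks at *Slc35a5* (1.998) and *Bbs10* (1.998). Just inside the CPM threshold were *Sh2d4b* and *Rapgef3* (both 20.04 CPM), and just outside it *Ppp1r18* and *Adamtsl2* (both 19.96 CPM). Most of the set thus sat close to both limits. Within single mice white CPM exceeded beige CPM in 14 to 19 of the 19 mice with both cell types, with a median of 18 mice, and in all 19 for 71 peaks. The nuclei of these mice made up the pooled values that chose the peaks, and the smallest beige library held 19550 entries. Such counts of mice, here and for single peaks below, are therefore a description and no independent support.

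**Figure D1:**
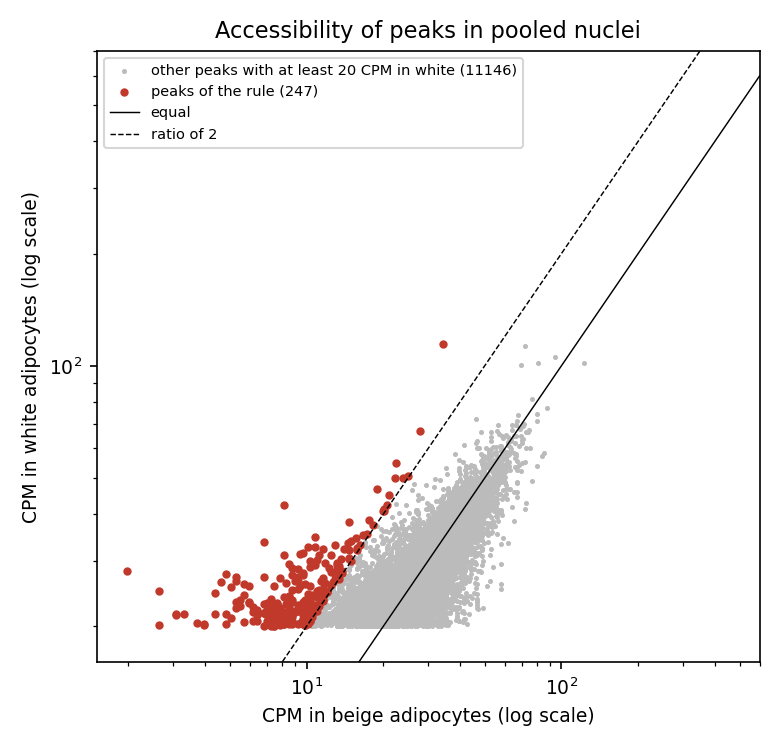
CPM in pooled beige nuclei (x axis, log scale) against CPM in pooled white nuclei (y axis, log scale) for the 247 peaks of the set (red) and the 11146 other peaks with at least 20 CPM in white adipocytes (grey), with lines at equality and at a ratio of 2. The red points lie on or above the dashed line by construction, most of them between 20 and 30 CPM, and the *Car3* downstream peak stands highest at 114 CPM.

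Recomputed within each group, the ratio of 2 was reached by 152 peaks in day0RT, 211 in day1C, 224 in day3C, 226 in day7C, 135 in day1CL, 90 in day3CL and 147 in day7CL. White exceeded beige in 222 to 247 of the peaks in each group. The 4 groups with fewest peaks past the ratio had pooled beige medians of 9.80 to 13.7 CPM, against 7.02 to 8.20 CPM in the 3 cold groups. Pooled white medians ranged only from 20.5 CPM in day1CL to 27.7 CPM in day0RT. Beige nuclei per group ranged from 58 in day0RT to 270 in day7C and white nuclei from 579 in day0RT to 1383 in day3CL, so the groups did not weigh equally in the pooled values that chose the peaks.

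Secreted factors and their receptors were well represented among the gene lists drawn up for white fat. Of 22 such genes, 5 had peaks in the set, and 8 of the 35 open peaks nearest to genes of that list belonged to it. They were *Lep* (leptin, the satiety hormone), *Cfd* (adipsin, a complement protease), *Igf1* (a growth factor), *Itih5* (a secreted matrix protein) and *Cmklr1* (the chemerin receptor). The list was chosen with earlier results of these data known. *Cmklr1*, with 3 of the 8 peaks, is also a white gene that the study names. The share is thus not independent evidence.

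The *Lep* peak 14021 bases after the start (chr6:29073250-29075233) had 50.8 CPM in white and 25.0 CPM in beige nuclei. By mouse it measured 49.9 ± 11.9 CPM (SD, n = 21) in white and 21.6 ± 15.2 CPM (SD, n = 19) in beige nuclei, and white exceeded beige in 19 of 19 mice. A second *Lep* peak in an intron, 5221 bases after the start and with an NR3C match, had 22.6 and 11.2 CPM. No other cluster came near the first *Lep* peak, the next highest being APC1 at 6.48 CPM.

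The peak of the set with *Cfd* as its nearest gene lay 6356 bases after the *Cfd* start, inside an intron of *Med16* (chr10:79896340-79898078). It had 42.4 CPM in white and 8.12 CPM in beige nuclei, a ratio of 5.22, and the macrophage cluster reached 24.3 CPM. The *Igf1* peak lay 139520 bases before the start between genes (chr10:87718318-87719173), with 21.6 CPM in white and 3.29 CPM in beige nuclei and white above beige in 19 of 19 mice.

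*Cmklr1* had 3 peaks in the set among the 6 open peaks nearest to it. They were the promoter 154 bases before the start (33.7 CPM in white, 6.80 CPM in beige), an intron 5695 bases after it (24.6 and 4.39 CPM) and a site 22428 bases before it with an NR3C match (32.7 and 10.1 CPM). All 3 were higher in white than in beige nuclei in 18 of 19 mice. Macrophages, which also use the chemerin receptor, had 19.8 CPM at the promoter and 23.8 CPM at the intron.

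*Car3*, carbonic anhydrase 3, an abundant enzyme of white fat and muscle, had 5 peaks in the set among its 8 open peaks. The downstream peak at 9144 bases had 114 CPM in white and 34.4 CPM in beige nuclei, and 46.96% of white and 14.7% of beige nuclei held a fragment there. In beige nuclei of day0RT mice it measured 70.0, 51.2 and 57.6 CPM and in those of day7C mice 6.71, 8.17 and 8.23 CPM. White nuclei of the same groups gave 134, 127 and 109 CPM and 90.3, 108 and 127 CPM. The beige values of these groups did not overlap and the white values did. Beige nuclei of day3CL mice gave 47.6, 64.8 and 131 CPM and those of day7CL mice 48.8, 70.2 and 34.02 CPM, all above the day7C values. The day0RT beige libraries held only 12 to 24 nuclei, and the 51.2 CPM was 1 entry of 19550. These beige levels are a description, since pooled beige values chose the peaks.

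The *Car3* promoter peak had 54.9 CPM in white and 22.4 CPM in beige nuclei and was higher in white nuclei in 19 of 19 mice. The other 3 *Car3* peaks lay in introns 3433, 3908 and 6341 bases after the start with 21.5, 24.4 and 46.6 CPM in white nuclei. The VSMC cluster reached 67.8 CPM at the downstream peak and 37.8 CPM at the promoter, which was the highest level outside the adipocytes.

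*Gpt2*, a mitochondrial alanine aminotransferase, had 3 peaks in the set, at 22987 and 29004 bases after its start and 2155 bases before it. The first had 24.9 CPM in white and 2.63 CPM in beige nuclei, 607 and 12 entries. Over mice it measured 26.2 ± 7.81 CPM (SD, n = 21) and 2.62 ± 6.00 CPM (SD, n = 19). In VSMC nuclei the pair of intronic *Gpt2* peaks was higher still, at 70.4 and 71.7 CPM. The difference at *Gpt2* thus set white apart from beige adipocytes, not from all other cells.

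*Slc25a10*, the mitochondrial dicarboxylate carrier, had 3 peaks at 6578, 8561 and 9457 bases after its start with 28.9, 32.2 and 24.3 CPM in white nuclei. *Cyp2e1*, a cytochrome P450, had a promoter peak of 45.1 CPM in white and 21.1 CPM in beige nuclei. *Far2*, a fatty acyl-CoA reductase, had an intronic peak 21707 bases after its start with 20.1 CPM in white and 2.63 CPM in beige nuclei. In that peak white exceeded beige in 19 of 19 mice, and APC1 nuclei also reached 20.1 CPM.

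In the lipogenesis list 2 of 46 open peaks belonged to the set. *Scd1*, the stearoyl-CoA desaturase, had a peak 30297 bases before its start (21.8 CPM in white, 7.46 CPM in beige) that holds an NR3C match. *Fads3*, a fatty acid desaturase, had its promoter peak (25.6 and 7.46 CPM). In lipid storage and lipolysis only *Dgat1*, which closes triglyceride synthesis, had a peak, 1 of 103, with 20.3 and 9.22 CPM. Of 54 open peaks at genes of white fat fate, 3 were in the set, at *Zfp423* (20.2 and 9.87 CPM), a factor that holds the white state, and at the corepressors *Nrip1* (20.3 and 8.78 CPM) and *Tle3* (25.9 and 9.87 CPM). None of 44 open peaks at 15 glucocorticoid target genes, none of 49 at 13 genes of insulin signalling and none of 32 at 19 thermogenic genes belonged to the set. Over all open peaks 2.17% did. Of the white genes that the study names, *Car3*, *Tenm4*, *Cmklr1* and *Fads3* had 10 of their list's 30 open peaks in the set, which is not independent evidence, since that list was drawn from these nuclei. The list also holds *Med16*, and the peak in its intron was counted under *Cfd*, whose start lies nearest.

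The largest ratio, 14.2, was at a peak inside *Atp8a2*, 67044 bases after the *Shisa2* start (chr14:59691759-59692945). It held entries in 685 white and 9 beige nuclei, which gave 28.1 and 1.97 CPM, and 30.6 ± 12.4 CPM (SD, n = 21) and 1.20 ± 2.06 CPM (SD, n = 19) over mice. No other cluster exceeded 3.91 CPM there, so this peak was open almost solely in white adipocytes. Further large ratios were at the *Ankrd65* promoter (21.4 and 3.07 CPM), in an intron of *Stc2*, which encodes the secreted glycoprotein stanniocalcin 2 (27.5 and 4.83 CPM), inside *Tshz2* nearest to *Zfp217* (26.2 and 4.61 CPM) and upstream of *Zfp266* (20.4 and 3.73 CPM). High accessibility with a ratio nearer to 2 was found inside *Tmem179* (66.6 and 27.9 CPM), upstream of *Rpusd3* (50.05 and 23.9 CPM) and in introns of *Mapk6* (50.01 and 22.2 CPM) and *Parva* (42.4 and 20.6 CPM). The remaining genes with 3 peaks each were *Nxt1* and *Prr5*, a subunit of a TOR kinase complex, all upstream of their starts.

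Accessibility outside the adipocytes split the set. In 97 peaks (39.3%) every other cluster stayed under 50% of the white level. In 83 peaks (33.6%) at least 1 other cluster matched or exceeded the white level, and 67 lay between. White adipocytes were highest, beige aside, in 66.4% of the set and in 28.8% of the other open peaks. The cluster annotated APC1 matched or exceeded white adipocytes at 51 peaks, APC2 at 37, vascular endothelial cells at 21, VSMC at 15, macrophages at 13 and B cells at 12. Median CPM fell from 23.2 in white adipocytes to 9.65 in beige, 7.78 in APC1, 5.39 in APC2, 5.22 in VSMC, 4.88 in endothelial cells, 2.03 in macrophages and 0.892 to 1.52 in dendritic cells and lymphocytes. Summed progenitor markers were 567 CPM in APC1 and 205 CPM in APC2, whose smooth muscle sum was the highest of all clusters.

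**Figure D2:**
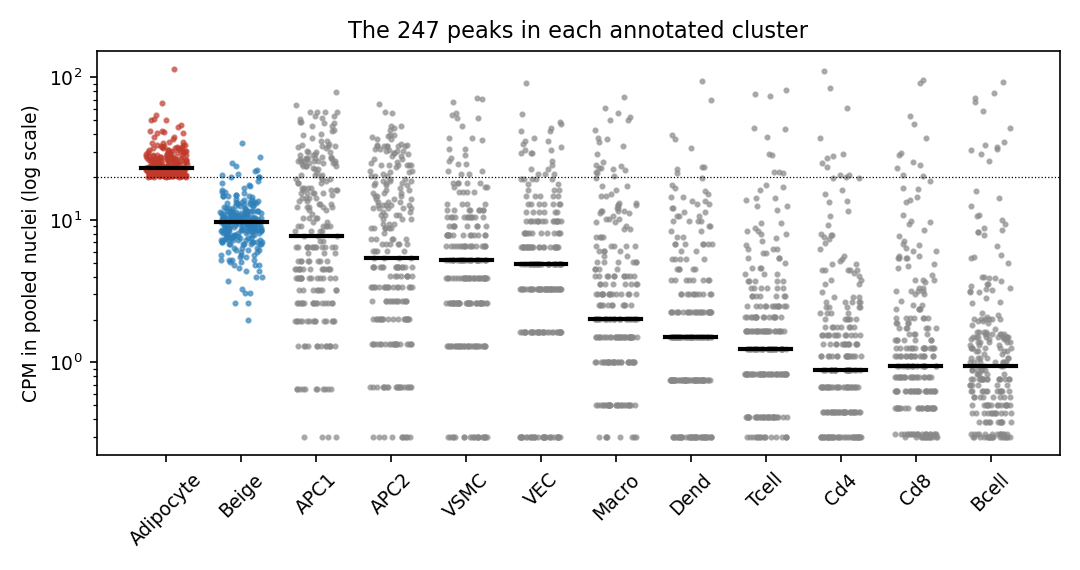
CPM in pooled nuclei (y axis, log scale; values under 0.3 are drawn at 0.3) of the 247 peaks in each annotated cluster (x axis), 1 point per peak with a bar at the median and a dotted line at 20 CPM. Medians fall from 23.2 in white adipocytes and 9.65 in beige adipocytes to about 1 in lymphocytes, while single peaks in most clusters exceed 20 CPM.

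Examples show both kinds. APC1 nuclei were far above white adipocytes at the upstream *Prr5* peak with the NR3C match (APC1 53.8 CPM against 33.0 CPM) and at the distant *Tle3* peak (APC1 51.2 CPM against 25.9 CPM). Endothelial cells had 91.2 CPM at the *Rapgef3* promoter against 20.04 CPM in white adipocytes, and B cells 71.9 CPM at a *Cd38* intron against 30.6 CPM. The *Lep*, *Tenm4*, *Scd1*, *Nrip1* and *Unc5a* peaks were under 7 CPM in every cluster outside the adipocytes.

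As a share of all entries, the 247 peaks took 0.741 ± 0.028% of white adipocyte entries in day0RT (SD, n = 3), 0.703 ± 0.011% in day1C, 0.675 ± 0.0075% in day3C and 0.644 ± 0.030% in day7C. After CL-316,243 the share was 0.553 ± 0.023% in day1CL, 0.640 ± 0.0069% in day3CL and 0.605 ± 0.066% in day7CL. All treated mice lay below the lowest day0RT mouse (0.718%). The 11146 other open peaks moved the same way, from 36.2% of entries in day0RT to 31.7% in day7CL, so within open peaks the set kept 1.87% to 2.01% in all groups but day1CL, which had 1.66%. The summed beige markers in white nuclei were 617 to 688 CPM in day0RT, 752 to 832 CPM in day1C, 644 to 703 CPM in day3C and 718 to 1084 CPM in day7C. They were 684 to 815 CPM in day1CL and 785 to 1077 CPM in day3CL and day7CL. No beige marker gene was at 0 except up to 2 in the day1CL libraries. The day3C and day1CL ranges overlapped with day0RT, and whether the marker levels bear on the lower shares was not tested.

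In beige adipocytes the share was 0.343 ± 0.014% in day0RT, 0.181 ± 0.056% in day1C, 0.177 ± 0.012% in day3C and 0.193 ± 0.0089% in day7C (SD, n = 3). After CL-316,243 it was 0.276% in the single day1CL mouse, 0.367 ± 0.075% in day3CL and 0.266 ± 0.017% in day7CL. Cold and CL-316,243 mice did not overlap on day 3 (0.164 to 0.186% against 0.284 to 0.430%) or on day 7 (0.183 to 0.199% against 0.247 to 0.281%). Beige nuclei of cold mice were thus further from white adipocytes at these peaks than beige nuclei of CL-316,243 mice, as a description and without a test, since the pooled beige values chose the peaks. A different share of cells given the beige label and a different state of those cells cannot be told apart here. In APC1 nuclei the group means ranged from 0.308 to 0.373%, in B cells from 0.0949 to 0.118%.

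**Figure D3:**
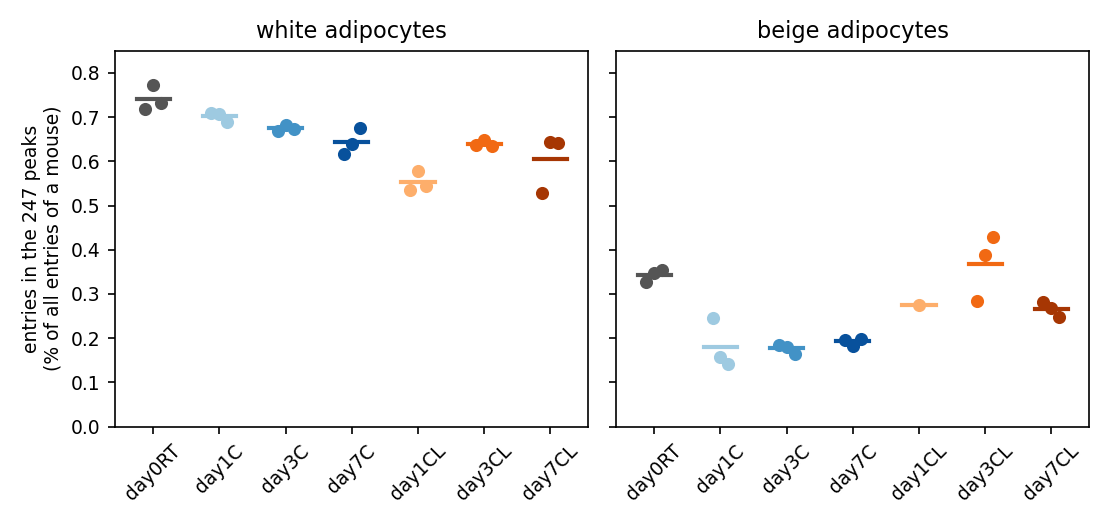
Percent of all entries of a mouse that fell in the 247 peaks (y axis) in white (left) and beige (right) adipocytes by group (x axis), 1 point per mouse with a bar at the mean. White shares fall from 0.741% in day0RT to 0.553% in day1CL, and beige shares are lowest in the cold groups, at 0.177 to 0.193%.

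Group comparisons within white adipocytes asked whether the set followed cold or CL-316,243. Counts were summed per mouse and tested with edgeR's quasi-likelihood test over 32541 peaks, the 247 of the set included, with Benjamini-Hochberg adjustment and a threshold of 0.05. All comparisons with day0RT share its 3 mice, so they are not independent of one another. The rule pooled all groups and used no contrast between them, but the same white counts entered it. The groups also weighed unequally in it. White and beige nuclei numbered 579 and 58 in day0RT, 651 and 270 in day7C and 921 and 237 in day7CL. The comparisons are thus not independent of the choice of the peaks. The part of that choice in the counts of lower and higher peaks, and at single named peaks, was not tested.

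Few of the peaks differed after cold, and on each day both the lower and the higher share exceeded those of all tested peaks. The log2 differences of the set also spread more widely in both directions. In day1C their 5th to 95th percentiles were -0.81 to 0.65, against -0.48 to 0.51 in the other open peaks. In day1C against day0RT 1 peak of the set (0.405%) was higher and 3 (1.21%) were lower, against 0.0553% of all tested peaks higher and 0.086% lower. In day3C 2 (0.81%) were higher and 5 (2.02%) lower, against 0.538% and 0.439% of all tested peaks. In day7C 1 (0.405%) was higher and 6 (2.43%) were lower, against 0.329% and 0.197%. The other open peaks were lower in 0.0449%, 0.565% and 0.233%. Median log2 differences of the set were -0.01, -0.10 and -0.12 on days 1, 3 and 7, beside 0.03, -0.08 and -0.08 in the other open peaks. DESeq2 called none of the set in these 3 comparisons, with 10 peaks higher and 21 lower, 13 and 13, and 8 and 22 at an unadjusted p under 0.05. Of all 32541 tested peaks 1560, 1867 and 2083 passed that DESeq2 limit in either direction.

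More of the set was lower after CL-316,243 than after cold, and so were more of all tested peaks. In day1CL against day0RT 18 peaks (7.29%) were lower and 1 was higher, against 0.759% of all tested peaks lower and 0.618% higher. In day3CL 15 (6.07%) were lower and 6 higher, against 1.19% and 2.11%. In day7CL 27 (10.9%) were lower and 4 higher, against 1.13% and 1.56%, and with the replicate number as a block 17 were lower and 3 higher. The other open peaks were lower in 0.7%, 1.58% and 1.57%. Median log2 differences of the set were -0.37, -0.09 and -0.26, beside -0.07, -0.10 and -0.12 in the other open peaks. Without day1CL replicate 3, which held most of that group's nuclei, no peak of the set was called on day 1, and without day7CL replicate 1 only 4 were called on day 7. Without day3CL replicate 2 there were 5 on day 3, and without day0RT replicate 3 there were 10, 6 and 5 on days 1, 3 and 7. For these runs and the block, the share of all tested peaks called is not given here. Their counts thus do not show whether the set still exceeded all peaks. DESeq2 called only the *Cfd* peak, on days 1 and 3, with 55, 28 and 42 peaks of the set lower and 1, 11 and 8 higher at an unadjusted p under 0.05. Of all 32541 tested peaks 2181, 2531 and 2462 passed that DESeq2 limit in either direction. The median dispersion was 0.00176 in edgeR, estimated peak by peak before the quasi-likelihood fit, and 0.0432 in DESeq2. The edgeR p-values rest on the quasi-likelihood fit, which estimates a further spread, so the 2 medians are not like measures. Why the tools differed in their calls was not tested.

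**Figure D4:**
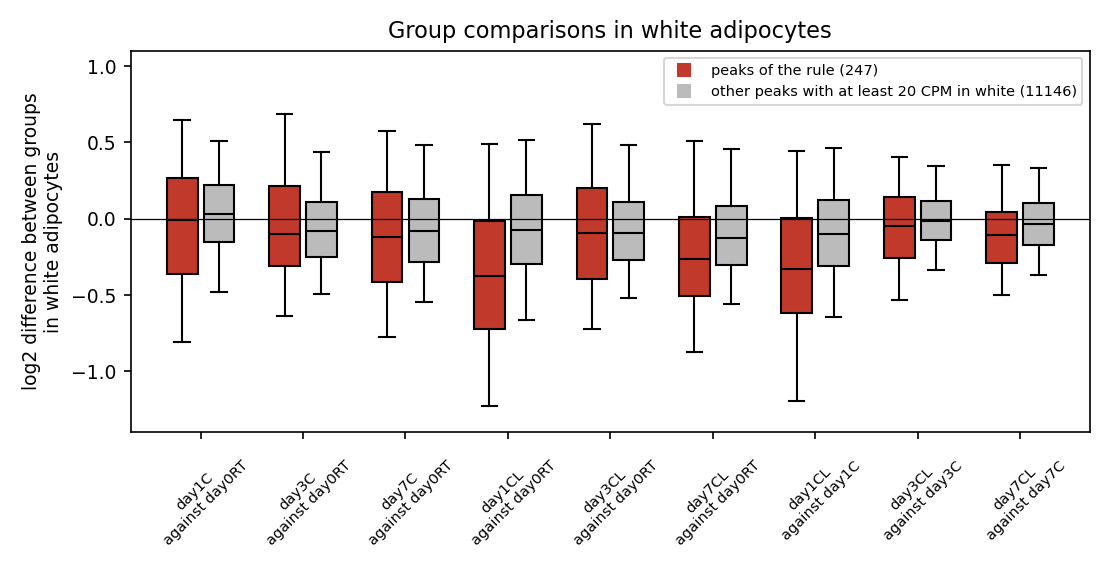
Log2 difference between groups in white adipocytes (y axis) for 9 comparisons (x axis), as boxes of the 25th to 75th percentile with the median and whiskers from the 5th to the 95th percentile, for the 247 peaks (red) and the 11146 other open peaks (grey). The red medians lie lowest for day1CL against day0RT (-0.37) and against day1C (-0.33).

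The *Cfd* peak in *Med16* fell most. White adipocytes of day0RT mice measured 93.0, 85.6 and 81.9 CPM, those of day1CL mice 45.3, 9.99 and 12.7 CPM, of day3CL mice 23.4, 24.2 and 39.7 CPM and of day7CL mice 23.2, 44.3 and 70.4 CPM. All 9 CL-316,243 mice lay below all 3 room temperature mice. The log2 difference was -2.63 ± 0.28 (SE, adjusted p 2.31e-15, edgeR) in day1CL, -1.45 ± 0.17 (adjusted p 1.89e-12) in day3CL and -1.21 ± 0.17 (adjusted p 2.64e-08) in day7CL. The 45.3 and 9.99 CPM of day1CL came from small libraries of 44198 and 200163 entries, so that difference rested largely on replicate 3. Over 14 alternatives it ranged from -2.90 to -2.51 and missed the threshold in 1, the one without that replicate. After cold the peak was lower on day 3 (-0.62) and on day 7 (-1.03, adjusted p 0.000451), while on day 1 it was 54.8, 50.5 and 57.2 CPM and missed the threshold (log2 difference -0.63, adjusted p 0.12).

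The distal *Scd1* peak with the NR3C match was also lower. It measured 32.9, 59.1 and 35.1 CPM in day0RT, 16.5, 13.5 and 12.5 CPM in day7CL and 20.2, 9.73 and 27.3 CPM in day3C. Neither treated group overlapped with day0RT. Its log2 difference was -1.43 in day1CL (adjusted p 0.0039), -0.87 in day3CL (adjusted p 0.0087), -1.23 ± 0.24 in day7CL (adjusted p 0.000565) and -0.89 ± 0.23 in day3C (adjusted p 0.0208). The *Fads3* promoter was lower in day7CL only (-0.89, adjusted p 0.014) among the comparisons made, and whether that differed between days was not tested. Of the 2 lipogenic peaks of the set, both were thus lower after 7 days of CL-316,243. Of all tested peaks 1.13% were lower and 1.56% higher in that comparison. The rule chose these 2 of the 46 open peaks of the lipogenesis list, and the calls among the others are not given here. The study reports lipogenic genes, measured over whole genes, as more accessible after both treatments. Nothing about lipogenic genes as a whole follows from these 2 peaks.

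The promoter of *Rapgef3*, which encodes a cAMP-activated exchange factor, measured 34.9, 29.5 and 39.0 CPM in day0RT, 14.9, 15.0 and 17.8 CPM in day3CL and 14.9, 15.4 and 12.5 CPM in day7CL. The groups did not overlap, and the log2 differences were -1.09 ± 0.23 (adjusted p 0.00111) and -1.18 ± 0.25 (adjusted p 0.00119). Endothelial nuclei had the highest level of this peak, and summed endothelial markers in white nuclei were 221 to 279 CPM in day0RT, 247 to 300 CPM in day3CL and 201 to 327 CPM in day7CL, with up to 3 of 6 markers at 0 in a library. These ranges overlapped, and their part in the *Rapgef3* result was not tested. The pooled white level of this peak, 20.04 CPM, was just inside the CPM threshold of the rule. The part of that choice in the *Rapgef3* result was not tested either.

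Further peaks that fell were an intron of *Epb41l3*, a membrane skeleton protein, in day1CL (24.7 ± 8.70 to 4.74 ± 5.02 CPM, n = 3, log2 -2.39, adjusted p 0.000293) and a site far upstream of *Habp2*, a serine protease, in day1C (-1.33) and day1CL (-1.90). The site upstream of *Pp2d1* fell in day1C from 31.0, 44.3 and 43.9 CPM to 12.1, 16.1 and 13.1 CPM (log2 -1.59, adjusted p 0.0037), and the distal peak of the corepressor gene *Tle1* in the same comparison (-1.52, adjusted p 0.012). On day 7 of cold the *Palm* promoter (-1.11) and a *Smim1* exon (-1.10) fell, and on day 3 the peak upstream of *Por*, the electron donor of cytochromes P450 (-0.80). A site downstream of *Creld2* was lower in day3CL (-0.88, adjusted p 0.0153). *Nrip1* was the 1 peak of 3 at white fate genes that fell, in day7CL (-0.86, adjusted p 0.039).

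Some peaks rose. An intron of *Alcam*, a cell adhesion molecule, measured 17.4, 11.8 and 7.80 CPM in day0RT, 35.3, 34.5 and 34.3 CPM in day1C and 32.3, 24.8 and 30.5 CPM in day7C. The groups did not overlap. Log2 differences were 1.65 ± 0.33 (adjusted p 0.00448) in day1C, 1.48 ± 0.29 (adjusted p 0.00095) in day3C, 1.43 ± 0.33 (adjusted p 0.0148) in day7C and 1.18 ± 0.31 (adjusted p 0.0157) in day7CL. An intron of *Unc5a*, a netrin receptor, measured 15.5, 17.7 and 7.80 CPM in day0RT, 22.6, 35.0 and 34.6 CPM in day1CL and 38.3, 33.3 and 27.6 CPM in day3CL, again without overlap. The 22.6 CPM, in day1CL replicate 1, was a single entry. Log2 differences at *Unc5a* were 1.59 ± 0.34 (adjusted p 0.00242) in day1CL, 1.51 ± 0.29 (adjusted p 0.000134) in day3CL and 1.14 ± 0.31 (adjusted p 0.0197) in day7CL. They missed the threshold in 4 of 13, 2 of 14 and 6 of 14 alternatives.

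Others that rose were an intron of *Cd38*, an enzyme that consumes NAD, in day3C (18.2 ± 5.79 to 40.1 ± 6.22 CPM, n = 3, log2 1.04, adjusted p 0.00724), sites near *Hs3st4* (1.19) and *Slc25a10* (0.97) in day3CL, and a distant site of *Flrt3* (0.96) in day7CL. B cells had more of the *Cd38* peak than white adipocytes, and summed B cell markers in white nuclei were 91.5 to 132 CPM in day0RT and 80.6 to 113 CPM in day3C.

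**Figure D5:**
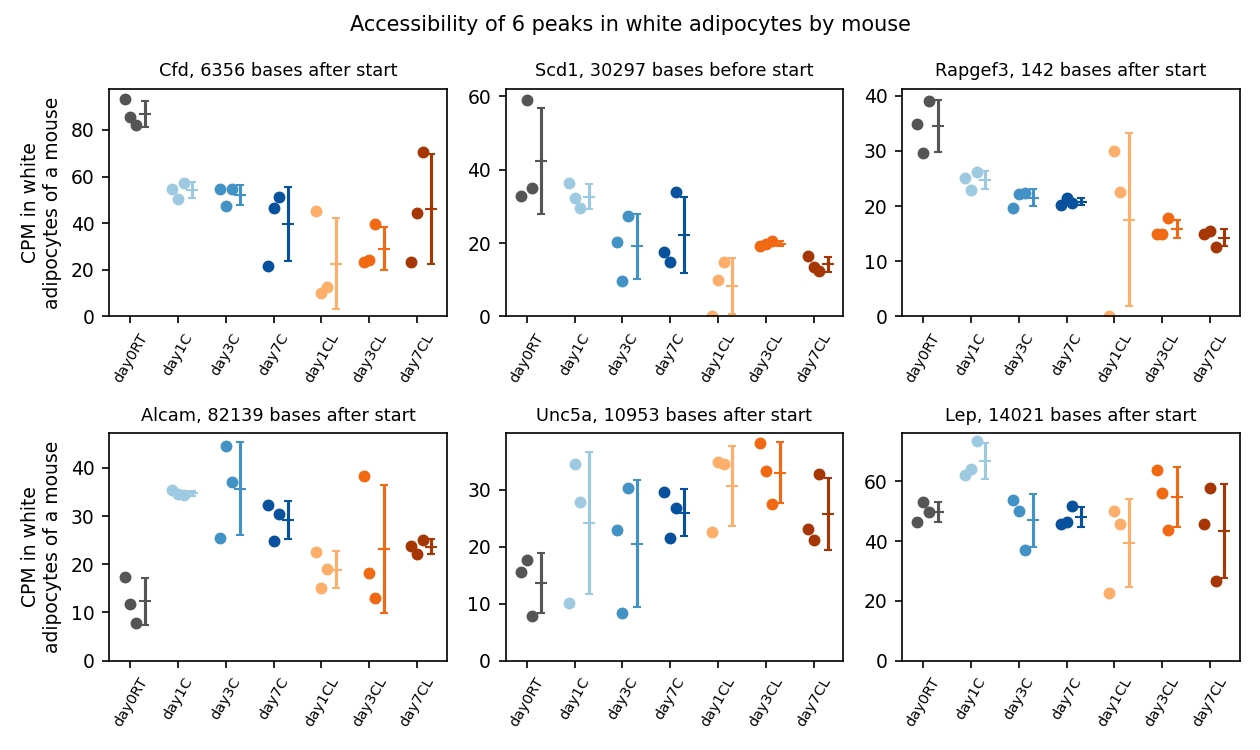
CPM in white adipocytes of each mouse (y axis) by group (x axis) for 6 peaks, with the mean and SD beside the 3 points. The *Cfd* peak is highest in day0RT at 81.9 to 93.0 CPM, *Alcam* is lowest in day0RT at 7.80 to 17.4 CPM, and the downstream *Lep* peak overlaps between day0RT and all groups but day1C.

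The peaks of *Car3*, *Lep* and *Cmklr1* were not among those called, which with 3 mice per group does not show that they were unchanged. The downstream *Car3* peak had log2 differences from -0.13 to 0.21 against day0RT, and the downstream *Lep* peak measured 46.5, 53.1 and 49.7 CPM in day0RT and 45.8, 57.7 and 26.6 CPM in day7CL, with a log2 difference of -0.00 (adjusted p 0.99). The day1C values of the downstream *Lep* peak did not overlap with those of day0RT. Still, none of the 5 *Car3*, 2 *Lep* or 3 *Cmklr1* peaks passed the test in any of the 9 comparisons. Of the other strong peaks, the one upstream of *Rpusd3* was lower in every comparison with day0RT except day1C, by log2 differences of -0.70, -0.76, -0.81, -0.65 and -0.65 in day3C, day7C, day1CL, day3CL and day7CL, and the one inside *Tmem179* was higher in day3CL (0.53). In all, 59 of 247 peaks were called at least once, 50 of them lower and 11 higher in some comparison. The like share over all tested peaks was not counted, so nothing particular to the set follows from the 59.

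CL-316,243 was compared with cold on the same day. In day1CL against day1C 9 peaks (3.64%) were lower and none was higher, against 0.218% of all tested peaks lower and 0.148% higher, and at an unadjusted p under 0.05 edgeR gave 63 lower and 4 higher. In day3CL against day3C 9 were lower and 5 higher, against 0.879% and 1.34%. In day7CL against day7C 2 were lower and none was higher, against 0.0123% and 0% of all tested peaks, and edgeR gave 21 lower and 3 higher at an unadjusted p under 0.05. With the replicate number as a block none of the set was called on day 7. DESeq2 called none of the set in these 3 comparisons, with 36, 11 and 6 lower and 0, 6 and 0 higher at an unadjusted p under 0.05. Of all 32541 tested peaks 1586, 1184 and 462 passed that DESeq2 limit in either direction. For edgeR no unadjusted count over all peaks was made, so its 63 and 21 lower peaks have no background to be read against. Median log2 differences of the set were -0.33, -0.05 and -0.11, beside -0.10, -0.01 and -0.04 in the other open peaks. Without day1CL replicate 3 only 1 peak was called on day 1, without day1C replicate 1 there were 4, and without day3CL replicate 2 none was called on day 3. The share of all tested peaks called in these runs is not given here either.

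The *Cfd* peak was lower after CL-316,243 than after cold on day 1 (22.7 ± 19.6 against 54.2 ± 3.40 CPM, n = 3, log2 -2.01, adjusted p 2.82e-06) and day 3 (29.1 ± 9.21 against 52.2 ± 4.28 CPM, log2 -0.82, adjusted p 1.24e-05). An intron of *Cpa1*, carboxypeptidase A1, measured 54.8, 48.2 and 31.1 CPM in day1C and 0, 0 and 14.1 CPM in day1CL, and 36.4, 43.1 and 34.9 CPM in day7C and 18.4, 14.4 and 18.8 CPM in day7CL. Both pairs of groups were apart, with log2 differences of -1.92 (adjusted p 2.49e-05) and -1.01 (adjusted p 0.0452). The day 1 difference ranged from -8.72 to -1.68 over 14 alternatives, and the -8.72, without day1CL replicate 3, is no measured fold, since both remaining day1CL libraries were at 0. The other 13 gave -2.14 to -1.68. The day 7 call missed the threshold in 11 of 14 alternatives, the replicate block among them (adjusted p 0.106). The 2 values of 0 came from the smallest white libraries, where 1 entry was worth 22.6 and 5.00 CPM. On day 3 the *Stc2* promoter was lower after CL-316,243 (23.6 to 36.2 CPM against 42.9 to 57.0 CPM, log2 -0.83, adjusted p 7.29e-06), and so were an intron of *Cachd1* nearest to *Gm10577* (-0.83) and the *Igf1* peak (-0.77, adjusted p 0.0029). A site far from *Tlr4*, the endotoxin receptor, was higher (28.2 ± 2.56 against 17.5 ± 2.42 CPM, log2 0.67, adjusted p 0.0149, and 0.208 with the replicate block), as were a peak in *Cept1* nearest to *Dennd2d* (0.62) and an intron of *Ptprg* nearest to *Gm49355* (0.61).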

How the data were processed

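Nuclei of iWAT were profiled by combinatorial-indexing snATAC-seq. Per the submitters' processing notes and methods, the authors aligned reads to mm10 with Bowtie2, filtered them with SAMtools, called peaks with MACS2 and clustered nuclei with Signac. The deposited matrix holds counts of peaks by nuclei without normalization, and every stored entry tested was 1 or 0, so a sum over nuclei is a number of nuclei with a fragment. Group, mouse and cluster of each nucleus came from the deposited annotation, since the 4 deposited samples are sequencing lanes.

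Counts were summed per mouse over white nuclei (at least 10), filtered with filterByExpr (minimum count 10), scaled by TMM and tested in edgeR 4.0.16 (R 4.3.3) with all 7 groups in 1 fit, after testing on simulated data. All 247 peaks passed the filter. P-values set a difference between groups against the spread between mice, estimated in 1 fit over all 7 groups. CPM values printed per mouse use library totals, fitted differences use TMM. Alternatives were DESeq2 1.42.0, no filter, library totals, a replicate block, deep nuclei, merged adipocytes, pairs of groups, single mice left out and, chosen after seeing the data, nuclei without shared barcodes.

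Promoters lie within 2000 bases of a protein-coding start. Named were the 10 largest ratios, the 10 highest CPM, genes with 3 peaks or more, genes of 8 lists and, per comparison, the 3 largest called changes in each direction that all 3 mice followed. Other peaks named for a result were chosen after their values were seen. The members and lists were chosen with earlier results of these data known.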

Additional observations from a re-analysis of the deposited data

Results flagged for a closer look

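A total of 11 differences between CL-316,243 and cold on the same day passed a direct test within white adipocytes and were the largest in their comparison. On day 1 the log2 difference (CL-316,243 minus cold, edgeR) was -2.01 at the *Cfd* peak, -1.92 at the *Cpa1* intron and -1.56 at the site upstream of *Strn4* (51.7 ± 7.80 CPM in day1C and 9.45 ± 9.20 CPM in day1CL, n = 3, adjusted p 0.000213). On day 3 it was 0.67 at the distant *Tlr4* site, 0.62 at *Dennd2d*, 0.61 at *Gm49355*, -0.83 at the *Stc2* promoter, -0.83 at *Gm10577* and -0.82 at *Cfd*. On day 7 it was -1.01 at *Cpa1* and -0.93 at the *Prr16* promoter (44.8 ± 4.76 CPM in day7C and 22.5 ± 2.21 CPM in day7CL, n = 3, adjusted p 0.0357). DESeq2 called none of the 11. Over 14 alternatives the threshold was missed in 11 at *Cpa1* on day 7 and at *Prr16*, in 10 at *Dennd2d*, in 9 at *Tlr4*, in 6 at *Gm49355*, in 4 at *Gm10577*, in 2 each at *Stc2*, *Strn4* and, on both days, *Cfd*, and in 1 at *Cpa1* on day 1. The replicate block ended the calls at *Cpa1* on day 7, *Prr16* and *Tlr4*. The day1CL libraries were the smallest, 2 of 3 holding 44198 and 200163 entries, and the part of depth in the day 1 values was not tested.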

How the results depend on the processing

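No named difference reversed its direction under the alternatives run, but the balance of called peaks turned in some. In day3CL against day3C the main fit gave 5 higher and 9 lower, and white and beige nuclei together gave 9 and 7. In day3C against day0RT the main fit gave 2 higher and 5 lower. Nuclei of at least 2000 entries alone gave 2 and 1 there, and no filter gave 1 and 0. The rule gave 709 peaks at a ratio of 1.5 and 64 at a ratio of 3, and 189 to 329 with a group left out. Counts of called peaks of the set are given in the order day1C, day3C, day7C, day1CL, day3CL and day7CL against day0RT, then CL-316,243 against cold on days 1, 3 and 7. The main counts were 4, 7, 7, 19, 21, 31, 9, 14 and 2. DESeq2 gave 0, 0, 0, 1, 1, 0, 0, 0 and 0. Without a filter they were 0, 1, 1, 7, 4, 4, 3, 5 and 0, more peaks being tested. With nuclei of at least 2000 entries alone they were 1, 3, 2, 8, 10, 15, 4, 11 and 0. Library totals alone gave 32 in day3CL and 52 in day7CL. White and beige nuclei together gave 15, 51, 38 and 57 in day3C, day7C, day1CL and day7CL and 0 in day7CL against day7C. The rule made the set lower in beige nuclei, which numbered 58 in day0RT, 270 in day7C and 237 in day7CL. A larger share of beige nuclei thus lowers the set by construction. Counts from merged nuclei, here and above, are no check of the main fit. Without nuclei of shared barcodes, a choice made after seeing the data, they were 4, 3, 12 and 19 in day3C, day7C, day1CL and day7CL and 4, 6 and 0 against cold. The replicate block gave 20 in day7CL and 0 in day7CL against day7C, and deviations of same-numbered mice correlated by -0.071 to 0.121, 1 of 63 pairs being over 0.1, which misses the bar set for pairing. The study ran 3 independent batches without tying the numbers to them, and whether a number marks a batch was not tested. Leaving out 1 mouse gave 0 to 5, 2 to 8, 0 to 6, 0 to 19, 5 to 25, 4 to 40, 1 to 9, 0 to 13 and 0 to 2. The lowest of these came without day0RT replicate 3, day7C replicate 1, day1CL replicate 3, day3CL replicate 2 or day7CL replicate 1. Under the alternatives other than merged nuclei, the cause of the shifts was not tested. The share of all tested peaks called under each alternative is not given here. The counts thus do not show whether the set still exceeded all peaks. Of 40 named differences, 38 missed the threshold with DESeq2, 22 without a filter and 6 with the block (*Por* in day3C, *Slc25a10* in day3CL, *Flrt3* in day7CL, *Tlr4* on day 3 and *Cpa1* and *Prr16* on day 7 against cold), all with their direction kept. Small libraries, above all day1CL, limit what could be called. The labels name no library preparation for single mice, and barcodes recurred only between mice of different days. Whether the day of treatment went with a library preparation is thus not known, and its part in the differences between groups was not tested.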
